A study of Homo sapiens with 12 samples.

Results

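Mock-treated SW13 cells that carry BRG1 were compared with mock-treated SW13 cells that carry the empty vector, across all genes on the array. SW13 is a human line from an adrenal cortical carcinoma that lacks BRG1 protein. The comparison takes 6 of the 12 arrays of the series, chosen by title: 3 labelled as SW13 with BRG1 and 3 labelled as SW13 without BRG1, all mock treated. The vector-labelled cells are the stable line SW13+pREP7, and the BRG1-labelled cells are the stable line SW13+pREP7+BRG1, made with isoform C of BRG1. Both lines were grown in DMEM with 10% fetal bovine serum, mock treated, given warm medium and collected after 6 h. The other 6 arrays hold the same lines after UV-C at 10 J/m2 and serve here only as a separate measurement of the same lines. The samples are described as independent biological samples, but each group is a single stable line, so its 3 arrays repeat that line. Tests between the groups therefore measure the spread within each line, and an effect of BRG1 cannot be told apart from other differences between these lines.

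BRG1, encoded by SMARCA4, is an ATPase that powers the SWI/SNF (BAF) complexes. These complexes slide and evict nucleosomes and so change the access of transcription factors to promoters and enhancers. BRM, encoded by SMARCA2, is the alternative ATPase of the same complexes. SW13 cells lack both proteins, and putting BRG1 back is known to make them large and flat and to slow their division.

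Signals are linear MAS values, each array scaled to a mean of 125, and are given below in the order of experiment number 1, 2 and 3 with n = 3 arrays per group. Medians of the 6 arrays were 21.7 to 25.3. Correlations of log2 signals were 0.894 to 0.949 when both arrays came from the same line (6 pairs) and 0.787 to 0.826 when they came from different lines (9 pairs). Arrays 1 and 2 of a group lay closer together than either lay to array 3. The SD of their log2 differences, over 13548 probe sets with a mean signal over 100, was 0.236 for the vector label and 0.192 for the BRG1 label, against 0.636 and 0.645, and 0.498 and 0.501, for the pairs with array 3. Vector-labelled array 3 also had the highest ratio of 3' to 5' signals, 1.64 for GAPDH and 2.57 for ACTB, against 0.932 to 1.12 and 1.21 to 1.54 on the other 5 arrays. Results without these arrays, or with arrays 1 and 2 averaged and counted as 1, are given for some of the calls that this moved. They are also given for some of the counts that moved by over 1.5 times. The part of RNA quality in the results was not tested.

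The label of an adrenal cortical line was checked against 14 steroidogenic markers with a probe set, of which 9 lay under the array median in both lines. NR5A1, the master regulator of steroidogenic cells, had mean signals of 10.6 and 18.5 in vector-labelled and BRG1-labelled cells, STAR 5.11 and 3.24, and CYP11A1 2.77 and 3.66. These defining markers of adrenal cortex were therefore near the array background in both lines. FDX1, a mitochondrial electron carrier that other tissues also use, was at 1431 and 802. Endothelial markers were low in both, with summed signals of 259 to 321 and 228 to 248 over 15 genes, and their defining gene CDH5 had means of 3.58 and 3.66.

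SMARCA4 itself was measured by 9 probe sets, of which 7 were tested. The brightest had signals of 314, 383 and 920.1 on vector-labelled and 143, 161 and 336 on BRG1-labelled arrays. The groups overlapped at 1 pair of arrays, and the direction was opposite to the label. Its log2 fold change of -1.28 (SE 0.42) passed the limma test narrowly (adjusted p = 0.0459), and the call was lost without vector-labelled array 2 or 3 or BRG1-labelled array 1 or 2 (-1.44, -0.81, -1.05 and -1.13). Another probe set went the other way, with 66.6, 62.2 and 147 against 119, 93.3 and 198 (log2 fold change 0.62, adjusted p = 0.408), and after UV this probe set was called higher in the BRG1-labelled cells (2.20, adjusted p = 0.00284). In mock-treated cells 0 of the 7 were called higher and 1 was called lower. SMARCA2 had 2 tested probe sets, neither of them called, and its brightest gave 12.4, 11.3 and 20.1 against 19.9, 26.6 and 5.56. The position of these probes relative to the introduced cDNA was not examined here, so the SMARCA4 signals alone do not check the labels. CD44, a hyaluronan receptor known to need BRG1 or BRM for its expression, had 18.8, 18.7 and 2.19 on vector-labelled and 2614, 2583 and 2648 on BRG1-labelled arrays, with all 11 of its probe sets higher (8.16, or 7.27 with low signals raised to the 40th percentile of their array). Every direction below follows the labels of the arrays.

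Across the array, 2509 probe sets (7.69% of 32622 tested) were higher and 1403 (4.3%) lower in BRG1-labelled cells at a fold over 2 and an adjusted p under 0.05 in limma. Reduced to the brightest probe set of each of 13834 genes, 1252 genes (9.05%) were higher and 704 (5.09%) were lower, so 64% of the 14.1% of genes called were higher. Of 691 higher genes with several tested probe sets 290 had all of them called higher, and of 356 such lower genes 138 had all called lower. Another probe set was called in the opposite direction in 2 higher and 0 lower genes. The median over all tested genes was 0.00 on the log2 scale, and 8209 genes (59.3%) lay within 1.5-fold and were not called. Higher genes moved further: their median log2 fold change was 2.02, with 635 over 4-fold and 226 over 16-fold, against -1.51, 245 and 80 for lower genes. Of the higher genes, 431 (34.4%) had a vector-labelled mean under the array median, and of the lower genes, 195 (27.7%) had a BRG1-labelled mean under it. For these genes the size of a fold rests on signals near background. With arrays 1 and 2 of a group averaged, an alternative added after the data were seen, 890 genes were higher and 433 lower. The kind of test named in the study's methods, with unequal variances and an unadjusted p under 0.05, was run here on linear signals with a fold over 2 (the methods' test below) and called 1192 genes higher and 622 lower. For mock-treated cells the paper reported the opposite balance, with more genes lowered than raised by BRG1. The reason for this difference was not tested.

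**Figure D1:**
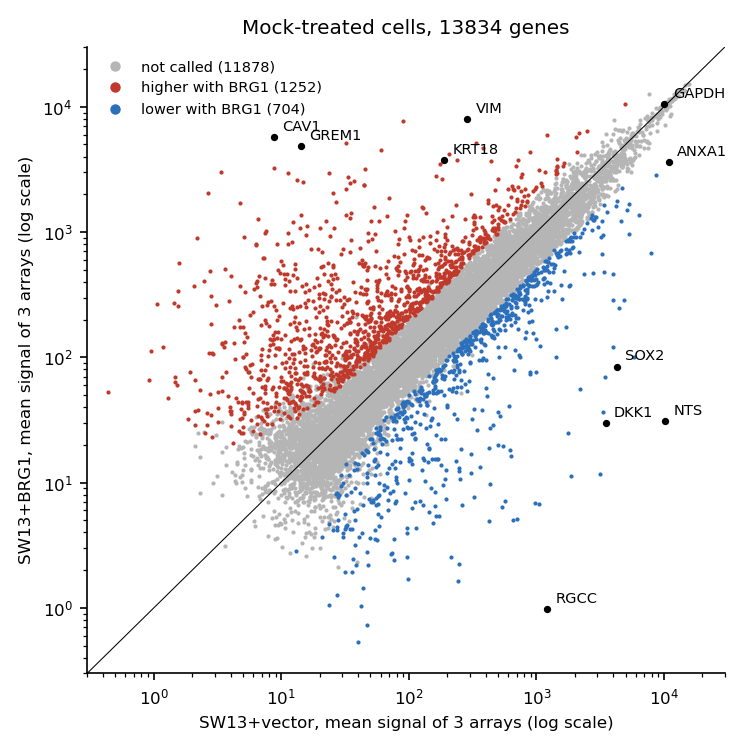
Mean signals of 13834 genes on the 3 vector-labelled arrays (x axis, log scale) and the 3 BRG1-labelled arrays (y axis, log scale) of mock-treated cells, with the line of equal signals. Points for 1252 genes called higher lie above the line and points for 704 genes called lower lie below it, and many of the largest differences start from vector-labelled signals near background.

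The calls were carried by each experiment number. Between the arrays numbered 1, 92.3% of the 1252 higher and 92.2% of the 704 lower genes differed by over 2-fold in the called direction, between those numbered 2, 91.9% and 88.5%, and between those numbered 3, 88.7% and 79.1%. Among all genes 14.8% to 15.1% were over 2-fold higher and 10.6% to 11% over 2-fold lower in a pair of arrays. At most 2 called genes had the opposite sign in any pair. Since the calls were made on the same arrays, these shares describe how evenly the 3 pairs carried them.

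Several of the transcripts with the largest differences went from near background to bright. CAV1, the coat protein of caveolae, had 2.83, 1.07 and 22.4 on vector-labelled and 5370, 5557 and 6251 on BRG1-labelled arrays (log2 fold change 10.45, SE 0.83, adjusted p = 1.24e-06). GREM1, a secreted antagonist of BMPs, had 15.2, 14.8 and 13 against 4820, 4987 and 4826 (8.41, SE 0.55, adjusted p = 1.99e-07). CCL2, a chemokine that attracts monocytes, had 3.03, 2.16 and 1.42 against 932, 876 and 892 (8.74, SE 0.34, adjusted p = 1.63e-09). In each of these genes the highest vector-labelled signal lay far below the lowest BRG1-labelled signal, and genes without overlap were preferred for naming. Because the vector-labelled signals were at background, the fold depends on how background is treated: with signals under the 40th percentile of an array (13.7 to 16) raised to it, the log2 fold changes were 8.36 for CAV1, 8.36 for GREM1 and 5.93 for CCL2.

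The other direction held transcripts as large. NTS, the precursor of the neuropeptide neurotensin, had 10568, 10144 and 9726 on vector-labelled and 3.5, 14.4 and 74.4 on BRG1-labelled arrays (log2 fold change -9.35, or -8.59 with background raised, SE 1.26, adjusted p = 0.000135). RGCC, a regulator of cell cycle progression, had 1205, 1197 and 1248 against 0.529, 0.617 and 1.77 (-10.51, SE 0.51, adjusted p = 1.18e-08), or -6.34 with the background raised to the 40th percentile. RGCC and NTS were bright on every vector-labelled array, RGCC was at background on every BRG1-labelled array, and NTS on BRG1-labelled array 3 stayed above that array's median of 22.4. SCG2, a granin of secretory vesicles, had 2110, 2101 and 1426 against 12.3, 12.9 and 8.36 (-7.40, SE 0.57). SPRY2, a feedback inhibitor of receptor tyrosine kinase signalling, had 4144, 3983 and 3782 against 119, 107 and 136 (-5.04, SE 0.13, adjusted p = 3.04e-10). SPRY2 stayed well above background in both lines, so its fold does not rest on background.

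**Figure D2:**
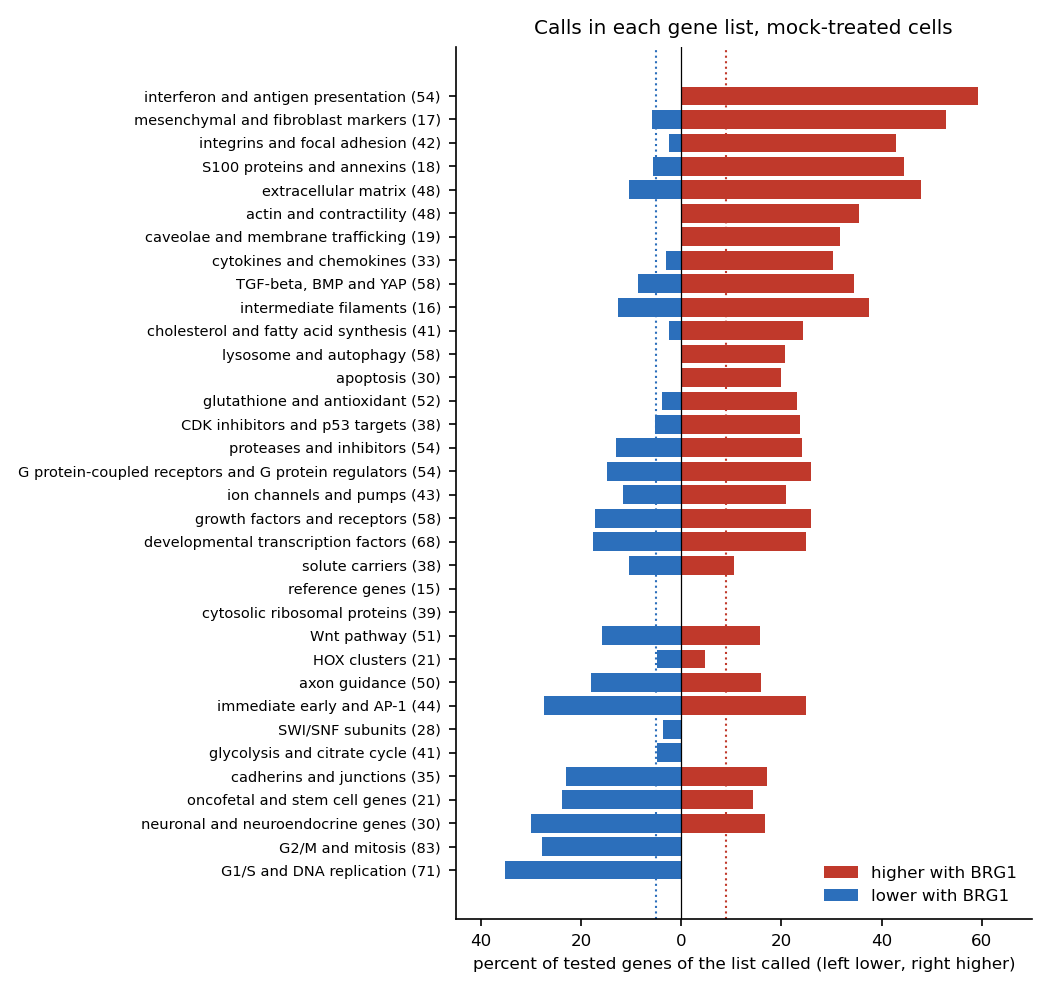
Percent of the tested genes of each list called lower (left) or higher (right) in BRG1-labelled cells, for the lists reported here with at least 15 tested genes (number in brackets). Dotted lines mark 9.05% higher and 5.09% lower over all tested genes. Lists of interferon, matrix, adhesion and S100 genes reach far to the right, the lists of DNA replication and mitosis lie wholly on the left, and ribosomal proteins and reference genes have no bar.

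Genes of cell shape and attachment were called higher more often than lower. Of 48 tested genes of actin and contractility, 17 were higher and 0 lower, with a median log2 fold change of 0.42 (0.00 over all genes). At an unadjusted p under 0.05 in limma 6 of them were lower, and the methods' test called 1 lower. CALD1, caldesmon, which binds actin and tropomyosin, had 206, 206 and 138 on vector-labelled and 2646, 2798 and 2524 on BRG1-labelled arrays (3.88, SE 0.15, adjusted p = 1.63e-09), and 6 of its 10 tested probe sets were higher. TPM1, a tropomyosin, had 1158, 1108 and 1360 against 5464, 5891 and 6571 (2.31, SE 0.11), and 5 of its 6 tested probe sets were higher. MSN, moesin, which ties actin to the membrane, had 803, 711 and 765 against 2580, 2800 and 2894 (1.86, SE 0.11). No array of one line reached the other in these 3 genes, but genes without overlap were preferred for naming. ACTB, the main cytoplasmic actin, had 8833, 9373 and 14696 against 8669, 8781 and 14193 and was not called (-0.06, adjusted p = 0.912), so array 3 stood apart in both lines for this gene and the lines did not.

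Caveolar and membrane trafficking genes went with them. Of 19 tested, 6 were higher and 0 lower (0 lower also at an unadjusted p under 0.05 and by the methods' test), with a median of 0.54. Beside CAV1, MYOF, a ferlin of membrane repair, had 39.5, 52.6 and 41.3 on vector-labelled and 2547, 2296 and 2273 on BRG1-labelled arrays (log2 fold change 5.75, SE 0.22, adjusted p = 1.63e-09). CAVIN1, which shapes caveolae, had 491, 408 and 761 against 1323, 1341 and 1847 (1.48, SE 0.21). Caveolin and cavin transcripts thus lay on the same side, with CAVIN1 already bright in vector-labelled cells and CAV1 at background there.

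Matrix genes were called in both directions, mostly higher: 23 of 48 tested were higher and 5 lower, with a median of 1.17. LAMB1, a laminin chain of basement membranes, had 6.53, 14.7 and 15 on vector-labelled and 825, 822 and 861 on BRG1-labelled arrays (6.21, SE 0.55, adjusted p = 3.15e-06). LOXL2, which cross-links collagen, had 15, 22.2 and 21.4 against 576, 635 and 974 (5.20, SE 0.38), and MATN2, a matrilin adaptor of matrix networks, 16.8, 19.2 and 28.2 against 533, 524 and 563 (4.69, SE 0.37). These 3 rose out of background. CCN2, a matricellular protein and well-known target of YAP and TGF-beta, went down from 7493, 7397 and 8918 to 425, 363 and 1257 (-3.77, SE 0.35, adjusted p = 4.75e-06). FBN2, a fibrillin of elastic microfibrils, had 194, 216 and 204 against 58.5, 80.1 and 92.1 (-1.44, SE 0.21), while its relative FBN1 went from 26.9, 24.8 and 26.8 to 511, 490.1 and 384 (4.13, SE 0.35). The fibrillins thus changed in opposite directions. COL11A1, a minor fibrillar collagen outside the list that was named for the size of its change, had 4414, 4572 and 4375 against 248, 251 and 245 (-4.17, SE 0.14, adjusted p = 5.33e-10).

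Integrins and focal adhesion proteins, which join actin to the matrix, had 18 of 42 tested genes higher and 1 lower, with a median of 0.97. ITGA6, the laminin-binding alpha subunit, had 183, 189.6 and 164 on vector-labelled and 736, 739 and 485 on BRG1-labelled arrays (1.85, SE 0.22, adjusted p = 5.48e-05). TNS3, a tensin, had 11.5, 10.1 and 8.38 against 496, 569.8 and 711 (5.88, SE 0.54), and PDLIM1, which binds alpha-actinin, 54, 84.7 and 63.7 against 1170, 1173 and 1675 (4.32, SE 0.20). The lower gene was ITGAV, the alpha subunit of vitronectin receptors, with 3051, 3072 and 3442 against 1100, 1006 and 618 (-1.85, SE 0.23, adjusted p = 5.65e-05). At an unadjusted p under 0.05, 25 were higher and 2 lower.

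In the list of calcium-binding S100 proteins, annexins and their AHNAK partners, 8 of 18 tested were higher and 1 lower, with a median of 0.50. S100A16 had 60.9, 102 and 46.5 on vector-labelled and 1873, 1767 and 2021 on BRG1-labelled arrays (4.83, SE 0.22, adjusted p = 7.02e-09). AHNAK2, a giant scaffold protein that binds S100A10, had 32.3, 26.1 and 41.2 against 2701, 2865 and 2737 (6.41, SE 0.26), and S100A10 itself 71, 47.2 and 26.5 against 766, 826 and 945 (4.24, SE 0.28). The exception was ANXA1, a phospholipid-binding mediator of inflammation resolution, with 10642, 10870 and 11099 against 3429, 3828 and 3659 (-1.58, SE 0.07, adjusted p = 8.63e-09). Its arrays differed by little within a line, and both of its probe sets were lower.

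Lineage markers did not move as a single programme. Of 17 tested mesenchymal and fibroblast markers 9 were higher and 1 lower, with a median of 1.79, and the summed signal of 22 such genes was 2480 to 3187 on vector-labelled and 11828 to 15912 on BRG1-labelled arrays. On BRG1-labelled arrays most of that sum was VIM, vimentin, with 272, 231 and 363 against 6737, 6759 and 10362 (4.78, SE 0.23, adjusted p = 1.06e-08). Intermediate filament genes, to which VIM belongs, were higher in 6 and lower in 2 of 16 tested, with a median of 0.62. CDH2, N-cadherin, had 23.2, 17.4 and 2.19 against 1317, 1444 and 1362 (7.16, or 6.28 with background raised, SE 0.66). The other fibroblast genes differed among themselves. Mean signals were 33.2 and 26.5 for DCN, 7.55 and 15 for COL1A2 and 7.44 and 8.89 for PDGFRA, near background in both lines, while COL3A1, a fibrillar collagen, was bright in both at 1467 and 1327. COL1A1 had means of 34.4 and 154, THY1, a surface glycoprotein, of 72.5 and 295, and LUM of 193 and 22.1. Bulk RNA cannot tell a change in the number of cells of a kind from a change in RNA per cell.

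Of 12 tested epithelial markers 4 were higher and 0 lower, with a median of 0.43; at an unadjusted p under 0.05 in limma 2 were lower, the methods' test called 0 lower, and without the arrays numbered 3 limma called 2 lower. Their summed signal over 21 genes was 1871 to 2010 against 8403 to 9869. On BRG1-labelled arrays it rested mostly on keratin 18 and CD24, a surface glycoprotein with 44.1, 45.8 and 20.8 on vector-labelled and 2698, 2767 and 2241 on BRG1-labelled arrays (6.20, SE 0.31), measured by probe sets that can bind related transcripts. SPINT2, a protease inhibitor of epithelia, had 721, 754 and 654 against 1822, 1881 and 1837 (1.38, SE 0.10). CDH1, E-cadherin, had mean signals of 9.98 and 18.2, EPCAM of 9.92 and 19.3 and KRT19 of 2.29 and 2.9, so these 3 were near background in both lines, while OCLN, occludin of tight junctions, was at 627 and 343 and KRT8, the partner of keratin 18, at 51.2 and 125. SNAI2, a repressor of E-cadherin, had 3.18, 2.71 and 0.492 against 57.5, 67.6 and 72.1 (5.34, or 2.14 with background raised), and its relative SNAI1 had 38.5, 23.2 and 34.4 against 4.7, 1.34 and 17.7 (-2.70, or -0.94 with background raised). The call on SNAI1 was lost without vector-labelled array 1 or 3 or BRG1-labelled array 1 or 2 (-2.55, -2.63, -2.68 and -1.78).

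Junction and cell-cell adhesion genes were divided, 6 higher and 8 lower of 35 tested, with a median of -0.16. With arrays 1 and 2 averaged 6 were higher and 3 lower. Desmoplakin, DSP, had 3.81, 5.32 and 9.74 on vector-labelled and 969.9, 897 and 518 on BRG1-labelled arrays (7.04, or 5.69 with background raised, SE 0.44, adjusted p = 1.39e-07), and ALCAM, an immunoglobulin-type adhesion molecule, 331, 344 and 482 against 1074, 1124 and 942 (1.46, SE 0.15). GJA1, the gap junction protein connexin 43, had 8859, 8416 and 8701 against 3103, 3229 and 2280 (-1.61, SE 0.13, adjusted p = 1.71e-06). Protocadherins 9 and 17 were lower: PCDH9 had 5364, 5408 and 3919 against 353, 362 and 141 (-4.21, SE 0.37), and PCDH17 had 613, 659 and 584 against 22.3, 16.9 and 15 (-5.12, SE 0.23). All 7 probe sets of these protocadherins were lower. Of other protocadherins called, PCDH19 was higher (5.28), and PCDH7 (-3.19) and PCDH18 (-2.84) were lower. PCDH7 lost its call without vector-labelled array 1, 2 or 3 (-3.06, -3.42 and -3.09).

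**Figure D3:**
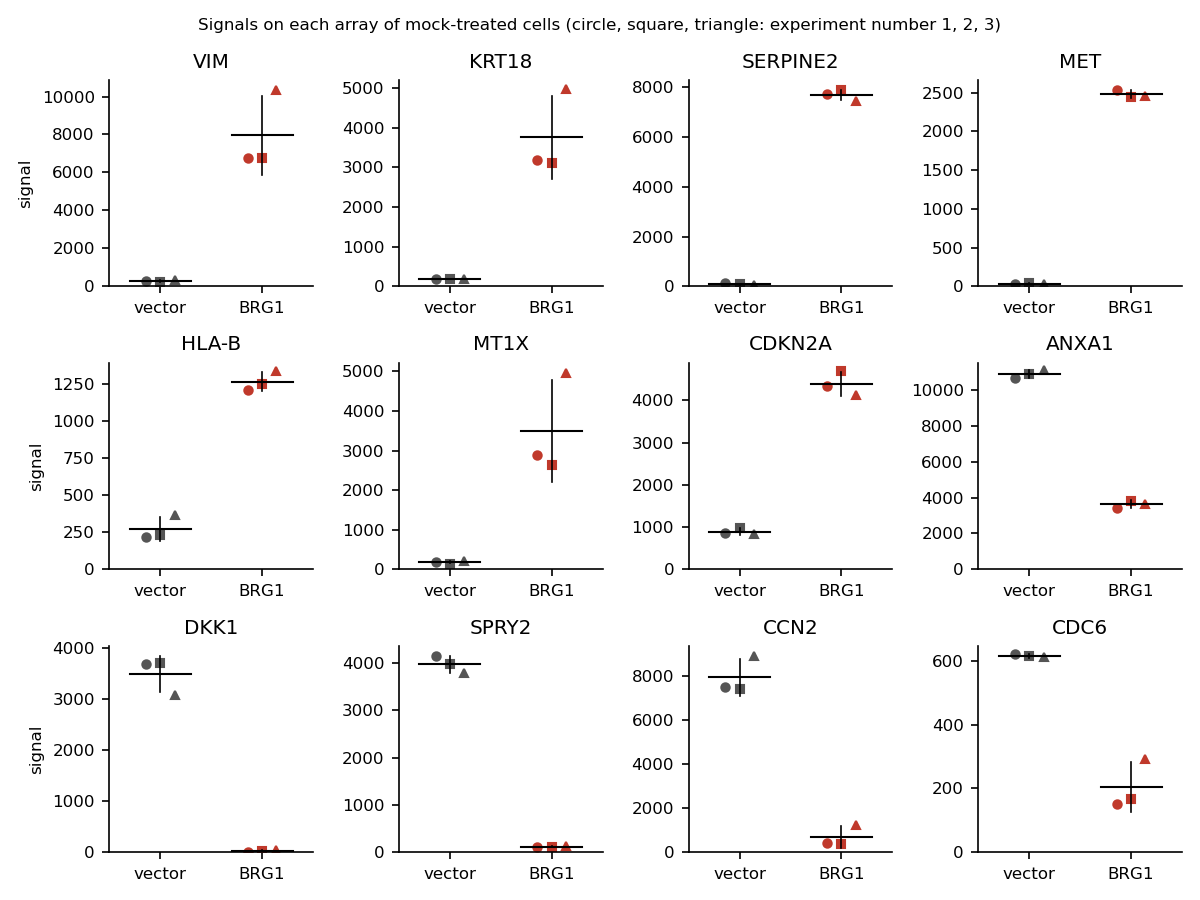
Signals (linear y axis from 0) of 12 genes on each mock-treated array, vector-labelled in grey and BRG1-labelled in red, with the mean as a horizontal line and the SD as a vertical line (n = 3). In no panel do the groups overlap, as genes without overlap were preferred for naming. Array 3 (triangle) often stands apart from arrays 1 and 2, as for VIM, MT1X, CCN2 and CDC6.

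Interferon-response and antigen-presentation genes formed the list with the largest share of higher calls: 32 of 54 tested were higher and 0 lower, with a median of 1.71. At an unadjusted p under 0.05, 40 were higher and 1 lower in limma, and the methods' test called 28 and 0. IFIT1, an interferon-induced protein that binds viral RNA, had 2.43, 4.35 and 1.57 on vector-labelled and 577, 602 and 282 on BRG1-labelled arrays (7.50, SE 0.49, adjusted p = 1.96e-07, or 4.96 with background raised). UBE2L6, which conjugates ISG15, had 107, 117 and 112 against 765, 796 and 576 (2.66, SE 0.15), and SP100, a nuclear body protein, 8.63, 2.26 and 1.14 against 404, 451 and 491 (7.31, or 4.92 with background raised, SE 0.64). PSMB9, a catalytic subunit of the immunoproteasome, had 97.4, 132 and 83.5 against 503, 539 and 428 (2.25, SE 0.18). Effectors and presentation genes thus lay on the same side. HLA-B, a class I heavy chain, had 221, 232 and 368 against 1212, 1256 and 1338 (2.25, SE 0.19), on probe sets that can bind other HLA transcripts.

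Cytokines and their receptors were higher in 10 of 33 tested genes and lower in 1, with a median of 0.50, and in 6 and 0 with arrays 1 and 2 averaged. OSMR, a receptor subunit for oncostatin M, had 220.1, 243 and 280.0 on vector-labelled and 612, 592 and 624 on BRG1-labelled arrays (1.31, SE 0.13, adjusted p = 8e-06). IL6ST, the shared signalling subunit of that receptor family, had 464, 453 and 441 against 1203, 1136 and 892 (1.24, SE 0.14), with 2 of its 5 probe sets called. TNFRSF1A, the main receptor of tumour necrosis factor, had 74.3, 87.3 and 89.9 against 436, 480.2 and 547 (2.54, SE 0.32). The lower gene, IL4R, was dim (log2 fold change -2.77, or -0.99 with background raised). Its call was lost without vector-labelled array 1 or 2 or BRG1-labelled array 1 or 2, with log2 fold changes of -2.54, -2.60, -2.87 and -2.61 (limma adjusted p = 0.113, 0.104, 0.0547 and 0.0746).

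Genes of DNA replication and of mitosis went the other way, by small steps. Of 71 tested G1/S and replication genes 25 were lower and 0 higher, with a median of -0.83, and of 83 tested G2/M and mitosis genes 23 were lower and 0 higher, with a median of -0.73. In the G1/S list 64 and in the G2/M list 79 genes had a log2 fold change under 0. At an unadjusted p under 0.05 in limma, 48 and 52 were lower and 1 and 1 higher, and the methods' test called 19 and 17 lower and 0 and 0 higher. The counts depend on array 3: without the arrays of that number 36 and 39 were lower, and with arrays 1 and 2 averaged 8 and 9. CDC6, which loads the replicative helicase, had 621, 613 and 611 on vector-labelled and 153, 167 and 293 on BRG1-labelled arrays (-1.65, SE 0.23, adjusted p = 0.000202). HMMR, a spindle protein and hyaluronan receptor, had 1896, 1592 and 1426 against 467, 451 and 541 (-1.75, SE 0.14), and KIF14, a kinesin of cytokinesis, 527, 516 and 508 against 159, 149 and 292 (-1.44, SE 0.23). All probe sets of CDC6, HMMR and KIF14 were lower. MCM7, a helicase subunit, was less even, with 1513, 1592 and 2714 against 447, 479.8 and 1347 (-1.50, adjusted p = 0.0259), and lost its call without vector-labelled array 3 or BRG1-labelled array 1 or 2 (-1.23, -1.22 and -1.27).

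Inhibitors of cyclin-dependent kinases and p53 targets were higher in 9 of 38 tested genes and lower in 2, with a median of 0.19. CDKN2A, whose products block CDK4 and stabilise p53, had 854, 984 and 827 on vector-labelled and 4345, 4691 and 4121 on BRG1-labelled arrays (2.31, SE 0.11, adjusted p = 1.13e-08), and both of its probe sets were higher. Its neighbour CDKN2B had 63.8, 50.9 and 36.1 against 1358, 1372 and 911 (4.61, SE 0.26). BTG1, an antiproliferative gene, had 242, 221 and 223 against 686, 649.7 and 671 (1.55, SE 0.11). SERTAD1, a cofactor of E2F, was lower, with 680.3, 715 and 1037 against 246, 293 and 294 (-1.52, SE 0.16). Of 30 tested apoptosis genes 6 were higher and 0 lower (3 lower at an unadjusted p under 0.05 and 0 by the methods' test), with a median of 0.11, among them GSDME, a gasdermin that caspase cleavage turns into a pore, with 200.2, 153 and 147 against 709, 757 and 670.3 (2.11, SE 0.15), and BNIP3L, a receptor for mitophagy, with 254, 249.7 and 201 against 1730, 1797 and 1369 (2.79, SE 0.13).

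Immediate early and AP-1 genes were split, 11 higher and 12 lower of 44 tested, with a median of -0.27. With arrays 1 and 2 averaged 10 were higher and 7 lower. SGK1, a kinase induced by serum and glucocorticoids, had 27.6, 55.6 and 12.7 on vector-labelled and 5385, 5338 and 4798 on BRG1-labelled arrays (7.59, SE 0.38, adjusted p = 1.63e-08). DUSP6, a phosphatase that turns ERK off, had 6308, 5496 and 5641 against 119, 96 and 89 (-5.85, SE 0.17, adjusted p = 3.92e-10). MAFF, a small MAF protein, had 603, 577 and 603 against 185, 202 and 237 (-1.52, SE 0.16), with 1 of its 2 probe sets called. EGR1, a zinc finger factor downstream of ERK, had 5823, 5980 and 7463 against 857, 644 and 2616 (-2.50, SE 0.36). Other phosphatases of the DUSP family were higher, with log2 fold changes of 2.96 for DUSP4, 1.70 for DUSP1 and 1.24 for DUSP5, all named after their values were seen.

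Developmental transcription factors were also called in both directions, 17 higher and 12 lower of 68 tested, with a median of 0.19. SOX2, a factor of neural and stem cells, had 4411, 4456 and 3899 on vector-labelled and 86, 70.9 and 96 on BRG1-labelled arrays (-5.67, SE 0.16, adjusted p = 3.92e-10), and 3 of its 4 probe sets were lower. HEY1, a Notch target, had 3410, 3633 and 3238 against 61.2, 85.4 and 61.7 (-5.64, SE 0.19), SALL4, a stem cell zinc finger factor, 561, 565 and 776 against 18.5, 20 and 10.7 (-5.31, SE 0.32), and DLX2, a homeobox factor of forebrain and neural crest, 1465, 1322 and 1483 against 143, 148 and 208 (-3.11, SE 0.16). Each of these was bright in vector-labelled cells. ETS1, the founding ETS factor, had 2.19, 15.1 and 1.56 against 365, 428 and 374 (6.70, or 4.71 with background raised), and FOXD1, a forkhead factor of renal stroma, 164, 169.6 and 221 against 942, 953 and 1821 (2.69, SE 0.34). Among 21 tested HOX genes 1 was higher and 1 lower, 4.76% each, not above the 9.05% and 5.09% over all tested genes. HOXD1, the lower one, had 270.2, 286 and 208 against 70.1, 76.2 and 50.1 (-1.97, SE 0.21). HOXC5, higher by 2.73 (1.15 with background raised), lost its call when any of the 5 arrays other than vector-labelled array 3 was left out (2.21 to 2.77).

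Genes of fetal and stem cells leaned lower among 21 tested, with 5 lower, 3 higher and a median of -0.63. LIN28B, which blocks the maturation of let-7 microRNAs, had 1479, 1398 and 1238 on vector-labelled and 373, 349 and 299 on BRG1-labelled arrays (-2.01, SE 0.16, adjusted p = 1.13e-06). HMGA2, a chromatin protein and let-7 target, had 5579, 5549 and 4824 against 1641, 1561 and 1810 (-1.67, SE 0.10), with 4 of its 7 probe sets called. DPPA2, a gene of pluripotent cells, had 2325, 2287 and 1915 against 49.4, 64.8 and 54.5 (-5.28, SE 0.19). PEG10, an imprinted gene of retroviral origin, went up from 299, 314 and 395 to 5437, 5302 and 4633 (3.94, SE 0.19).

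Growth factors, receptors and binding proteins were called in both directions, 15 higher and 10 lower of 58 tested, with a median of 0.06. MET, the receptor of hepatocyte growth factor, had 32.2, 41.7 and 29.2 on vector-labelled and 2538, 2440 and 2456 on BRG1-labelled arrays (6.19, SE 0.35, adjusted p = 5.71e-08), and all 4 of its probe sets were higher. AXL, another receptor tyrosine kinase, had 15.3, 22.5 and 29.2 against 1071, 1068 and 1505 (5.79, SE 0.25), and the ligand FGF5 14.3, 20 and 26.4 against 1082, 1035 and 1102 (5.77, SE 0.72). Other ligands and receptors were lower. NRG1, a ligand of ERBB receptors, had 4050, 3632 and 4355 against 280.0, 224 and 355 (-3.83, SE 0.15), its receptor ERBB4 742, 748 and 629 against 263, 317 and 179.9 (-1.51, SE 0.21), and KITLG, stem cell factor, 1874, 1838 and 1669 against 394, 406 and 306 (-2.29, SE 0.16).

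Among genes of the TGF-beta, BMP and YAP pathways 20 of 58 tested were higher and 5 lower, with a median of 0.12. On the ligand side, INHBA, the activin A subunit, had 9.05, 3.03 and 15.7 on vector-labelled and 813, 819 and 786 on BRG1-labelled arrays (6.74, or 5.70 with background raised, SE 0.86, adjusted p = 8.37e-05), and TGFB2 188, 217 and 157 against 48.1, 38.9 and 64.1 (-1.91, SE 0.31, not called without the arrays numbered 2, at -1.63). Among inhibitors, GREM1 was higher, as was FSTL1, a secreted follistatin relative, with 22.3, 12.8 and 6.62 against 1011, 952 and 1291 (6.44, SE 0.35), on 1 of its 2 probe sets. AMOTL1, a junction protein that binds YAP, had 44, 38.3 and 59.9 against 505, 550.3 and 527 (3.50, SE 0.21), and LATS2, a kinase that inactivates YAP, 1250, 1483 and 1119 against 379, 470.5 and 319 (-1.73, SE 0.25). Ligands, kinases and targets such as CCN2 were therefore found on either side.

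Wnt pathway genes divided evenly, 8 higher and 8 lower of 51 tested, with a median of 0.05. Secreted members of antagonist families were prominent on both sides. DKK1 had 3674, 3706 and 3077 on vector-labelled and 15.8, 22.4 and 51.7 on BRG1-labelled arrays (-7.04, SE 0.34, adjusted p = 1.29e-08), while DKK3 had 21.8, 4.53 and 7.39 against 966, 980.0 and 989 (6.76, or 5.87 with background raised, SE 0.40). SFRP4 had 562, 575 and 493 against 21.7, 12 and 25.3 (-4.85, SE 0.29), while SFRP1 had 1.11, 16.9 and 33.1 against 763, 671 and 772 (6.43, or 5.17 with background raised, SE 0.87). Members of the same antagonist family were thus high in opposite lines. AXIN2, a feedback inhibitor and common readout of beta-catenin, had 150.3, 154 and 140.5 against 15.5, 9.08 and 2.7 (-4.36, or -3.30 with background raised, SE 0.70), the receptor FZD1 333, 348 and 391 against 99.1, 74.5 and 111 (-1.93, SE 0.24), and TNIK, a kinase that acts on TCF4, 24.6, 11.8 and 3.44 against 421, 407 and 451 (5.41, or 4.62 with background raised, SE 0.51).

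Axon guidance genes had 8 higher and 9 lower of 50 tested, with a median of -0.27. With arrays 1 and 2 averaged 5 were higher and 6 lower. Among ligands, SEMA3A had 931, 909.9 and 843 on vector-labelled and 67.6, 90.2 and 72.4 on BRG1-labelled arrays (-3.55, SE 0.18, adjusted p = 2.34e-08), SEMA3D had 516, 521 and 509.6 against 31.5, 44.7 and 26.8 (-3.94, SE 0.31), and NTN4, a netrin, rose from 4.83, 2.16 and 8.61 to 320.1, 338 and 347 (6.22, or 4.50 with background raised, SE 0.72). Among receptors, EPHA7 had 3469, 3550 and 2808 against 774, 781 and 451 (-2.33, SE 0.21), with all 4 probe sets lower, and ROBO1 657, 539 and 838 against 199, 206 and 168 (-1.81, SE 0.18). Other receptors called were NRP1 (9.21) and PLXNB2 (1.23), higher, and EPHA3 (-4.14), ROBO2 (-3.12), PLXND1 (-1.15) and EPHA5 (-1.10), lower. EPHA5 lost its call without BRG1-labelled array 3 (-0.94). DPYSL2, which carries semaphorin signals to microtubules, had 126, 116 and 166 against 1391, 1442 and 1445 (3.41, SE 0.14).

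Neuronal and neuroendocrine genes were lower in 9 and higher in 5 of 30 tested, with a median of 0.05. Beside NTS and SCG2, the dendritic protein MAP2 had 5401, 5072 and 5416 on vector-labelled and 1032, 1128 and 712 on BRG1-labelled arrays (-2.49, SE 0.20, adjusted p = 1.2e-06). MAP1B, another microtubule-associated protein, went the other way, with 28.2, 25 and 35.3 against 652, 602 and 767 (4.52, SE 0.22), and so did CPE, which trims neuropeptide precursors, with 24.4, 31.9 and 20.5 against 521, 512 and 236 (3.98, SE 0.49). Called members thus lay on both sides. CHGB (-1.40) was lower, like SCG2, while SCG5 (5.43), VGF (1.07) and DCLK1 (10.12, or 7.10 with background raised) were higher. VGF lost its call without vector-labelled array 1 or 2 or BRG1-labelled array 1 or 3 (0.98, 1.02, 1.03 and 0.95).

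Proteases and their inhibitors were higher in 13 and lower in 7 of 54 tested, with a median of 0.10. SERPINE2, an inhibitor of thrombin and plasminogen activators, had 119, 85.5 and 67.2 on vector-labelled and 7727, 7864 and 7454 on BRG1-labelled arrays (6.45, SE 0.20, adjusted p = 4.56e-10). ADAM12, a membrane metalloprotease, had 5.64, 9.33 and 6.46 against 614, 631 and 628 (6.48, or 5.40 with background raised, SE 0.39), and PLAU, urokinase, 6.4, 27.5 and 4.38 against 501, 404 and 629 (5.78, or 4.81 with background raised, SE 0.61). TFPI2 and TFPI, Kunitz inhibitors of coagulation proteases, were lower, with 3340, 3438 and 3403 against 451, 459.7 and 529 (-2.83, SE 0.12) and 3441, 3196 and 3159 against 1387, 1399 and 912 (-1.43, SE 0.17). MMP3, stromelysin, had 588, 545 and 368 against 13.3, 20.7 and 25.3 (-4.68, SE 0.29).

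Receptors and channels showed no common side. G protein-coupled receptors and G protein regulators were higher in 14 and lower in 8 of 54 tested (median 0.24), ion channels and pumps higher in 9 and lower in 5 of 43 (median 0.21), and solute carriers higher in 4 and lower in 4 of 38 (median -0.07). The solute carrier shares were 10.5% in each direction, against 9.05% higher and 5.09% lower over all tested genes. With arrays 1 and 2 averaged, solute carriers were higher in 2 and lower in 3. GPRC5A, a retinoic acid-induced orphan receptor, had 35.5, 36.4 and 33.5 on vector-labelled and 1351, 1354 and 1551 on BRG1-labelled arrays (5.33, SE 0.45, adjusted p = 2.15e-06). S1PR1, a receptor of sphingosine 1-phosphate, had 1080, 945 and 643 against 71.2, 62.9 and 86.4 (-3.58, SE 0.22), and GNAI1, an inhibitory G protein subunit, 2008, 1767 and 1684 against 376, 415 and 347 (-2.26, SE 0.12). Potassium channels differed in kind: KCNJ2, an inward rectifier, had 506, 469.5 and 325 against 10.1, 8.47 and 10.6 (-5.46, or -4.82 with background raised, SE 0.63), and KCNMA1, the large-conductance calcium-activated channel, 5.68, 11.6 and 30.1 against 1382, 1220 and 752 (6.43, or 5.81 with background raised, SE 0.77). Of the transporters, SLC2A1, the glucose transporter GLUT1, had 86.3, 95.6 and 108 against 406, 377 and 302 (1.90, SE 0.17), and SLC7A5, a leucine transporter, 602, 679 and 1195 against 84.3, 137 and 253 (-2.46, SE 0.37).

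Lysosomal and autophagy genes were higher in 12 and lower in 0 of 58 tested, with a median of 0.55; at an unadjusted p under 0.05 in limma 26 were higher and 4 lower, and the methods' test called 10 and 0. The cathepsin CTSB had 477, 487 and 489 on vector-labelled and 1652, 1713 and 1583 on BRG1-labelled arrays (1.77, SE 0.09, adjusted p = 1.95e-08), with all 5 probe sets higher. NPC2, a carrier of lysosomal cholesterol, had 1327, 1474 and 1577 against 3401, 3861 and 4167 (1.38, SE 0.11), and TFE3, a transcription factor of lysosomal genes, 211, 286 and 385 against 703, 727 and 984 (1.48, SE 0.22). Lipid synthesis genes were higher in 10 and lower in 1 of 41, with a median of 0.30. LPIN1, a phosphatidate phosphatase, had 75.9, 73.6 and 104 against 579, 556 and 592 (2.79, SE 0.20), ELOVL6, a fatty acid elongase, 98, 82.1 and 125 against 903, 947 and 725 (3.09, SE 0.19), and ELOVL4, an elongase of very long chains, was lower with 316, 248 and 261 against 71.5, 68.5 and 45.5 (-2.17, SE 0.29). The elongases ELOVL7 (4.97) and ELOVL2 (1.38), named after their values were seen, were higher, so ELOVL4 was the lower 1 of 4 elongases called.

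Antioxidant and glutathione genes were higher in 12 and lower in 2 of 52 tested, with a median of 0.24, and 6 of the 12 were metallothioneins, small cysteine-rich proteins that bind zinc and copper. MT2A had 347, 441 and 365 on vector-labelled and 3709, 3950 and 6442 on BRG1-labelled arrays (3.57, SE 0.19, adjusted p = 3.16e-08), and MT1X 177, 149 and 202 against 2879, 2633 and 4967 (4.26, SE 0.23). Their transcripts are nearly alike, and their probe sets can bind each other's transcripts, so these are not 6 separate measurements. GSR, glutathione reductase, had 443, 382 and 749.6 against 199.7, 173 and 273 (-1.25, SE 0.24) and lost its call without vector-labelled array 3 (-0.96). Glycolysis and citrate cycle genes gave 0 higher and 2 lower calls of 41 tested (4.88% lower, against 5.09% over all tested genes), with a median of 0.09. At an unadjusted p under 0.05 in limma 11 were higher and 7 lower, and the methods' test called 0 and 0. With arrays 1 and 2 averaged limma also called 0 and 0. Cytosolic ribosomal proteins gave 0 calls of 39 tested, with values from -0.13 to 0.22 (2 higher and 0 lower at an unadjusted p, 0 and 0 by the methods' test). Reference genes gave 0 calls of 15 tested (2 higher and 4 lower at an unadjusted p, 0 and 0 by the methods' test), with a median of -0.04 and values from -1.17 to 0.97. Under quantile normalization, and with arrays 1 and 2 averaged, 1 reference gene was higher, and after UV 1 was lower. B2M, the light chain of class I molecules and a member of the interferon list too, had 4555, 4708 and 2937 against 8117, 8387 and 6884 (0.97, SE 0.15), under the fold threshold.

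The list of SWI/SNF subunits gave 0 higher and 1 lower of 28 tested (3.57% lower, against 5.09% over all tested genes), with a median of -0.17. The lower one was SMARCA4, as described above. At an unadjusted p under 0.05 in limma 1 was higher and 5 lower, and the methods' test called 0 and 0. Blood cell markers gave 0 higher and 1 lower of 7 tested (0 and 1 at an unadjusted p and by the methods' test), the lower one being PTPRC, CD45, a phosphatase of leukocytes, with 130.4, 160.0 and 78.2 on vector-labelled and 7.11, 5.74 and 8.35 on BRG1-labelled arrays (-4.07, or -2.97 with background raised, SE 0.72, adjusted p = 0.00118). All 3 of its probe sets were lower, and the call on the brightest was lost without the arrays numbered 2 (-3.71). The summed signal of 14 blood cell markers was 318 to 404 against 173 to 275 with PTPRC included, and 9 of the 14 lay under the array median in both lines.

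The UV-treated arrays gave a separate measurement of the same contrast, with no array in common. There 1323 genes (9.56%) were higher and 914 (6.61%) lower in BRG1-labelled cells. Of the 1252 genes higher in mock-treated cells, 990 (79.1%) were called higher again, 1 was called lower, and 1236 (98.7%) had the same sign. Of the 704 lower genes, 527 (74.9%) were called lower again, 0 were called higher, and 690 (98%) had the same sign. The log2 differences of both sets correlated with r = 0.953 over the called genes and 0.847 over all 13834, as a description across genes, which share the lines and the array design. The variance estimate is also shared. The median log2 difference after UV was 1.87 for genes higher and -1.47 for genes lower in mock-treated cells.

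**Figure D4:**
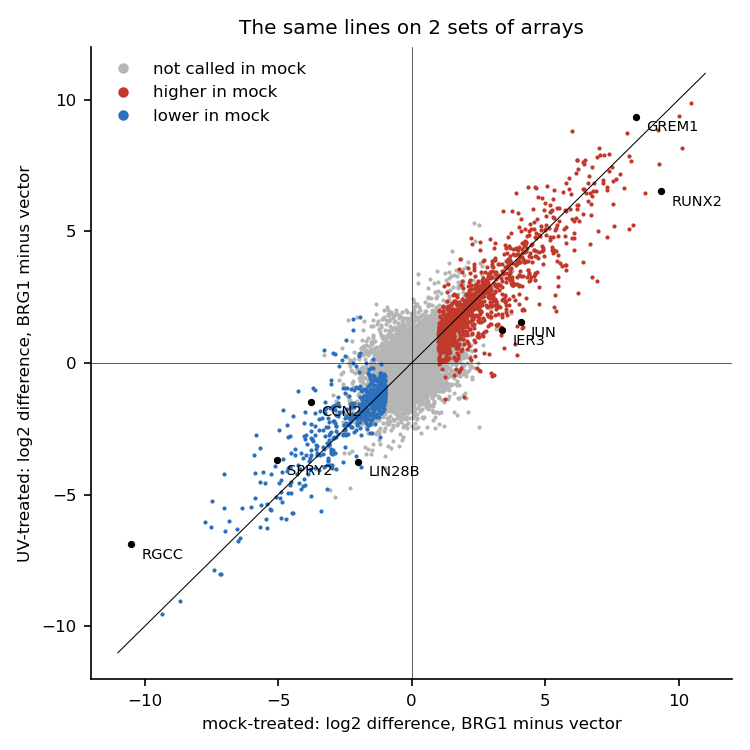
Log2 difference between BRG1-labelled and vector-labelled cells for each of 13834 genes, mock-treated (x axis) against UV-treated (y axis), with genes coloured by their call in mock-treated cells. Called genes follow the line of equal differences; JUN, IER3 and SPRY2 lie closer to 0, and LIN28B further from 0, in UV-treated cells.

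Several lists were counted on the UV-treated arrays too. Interferon and antigen presentation gave 29 higher and 0 lower, the matrix list 20 and 5, actin 16 and 0, integrins 18 and 2, caveolae 8 and 0, lysosome 20 and 1, G1/S 0 and 34, and G2/M 0 and 29. Some named genes were not called there: MAFF had a log2 difference of -0.20, SERTAD1 of -0.65 and KLF10, a TGF-beta-induced repressor, of -0.17, against -1.43 for KLF10 in mock-treated cells (1163, 1009 and 1284 on vector-labelled, 368, 381 and 551 on BRG1-labelled arrays). Differences of these 3 between the treatments did not pass after adjustment over all probe sets.

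Calls were found on all 23 chromosomes tested, with 2 departures in the chromosome median that were singled out after their values were seen. On chromosome 13, 8 of 233 genes (3.43%) were higher and 35 (15%) lower, with a median log2 difference of -0.27 (UV-treated -0.31). On chromosome 20, 47 of 399 genes (11.8%) were higher and 12 (3.01%) lower, with a median of 0.24 (UV-treated 0.18). Medians of the other chromosomes ran from -0.12 to 0.10. Smaller regions on those chromosomes departed further. Among windows of 50 neighbouring tested genes, 1 on chromosome 6 had 16 higher and 2 lower (median 0.83). Another, on chromosome 7, had 0 higher and 8 lower (median -0.55). Within experiment numbers 1, 2 and 3 the median was -0.31, -0.27 and -0.36 for chromosome 13 and 0.23, 0.27 and 0.27 for chromosome 20. Under quantile normalization they were -0.36 and 0.21, and with arrays scaled to a common median -0.33 and 0.19. Lower genes of chromosome 13 include RGCC, SPRY2, PCDH9, PCDH17 and LATS2. A difference in copy number between the lines was not tested.

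**Figure D5:**
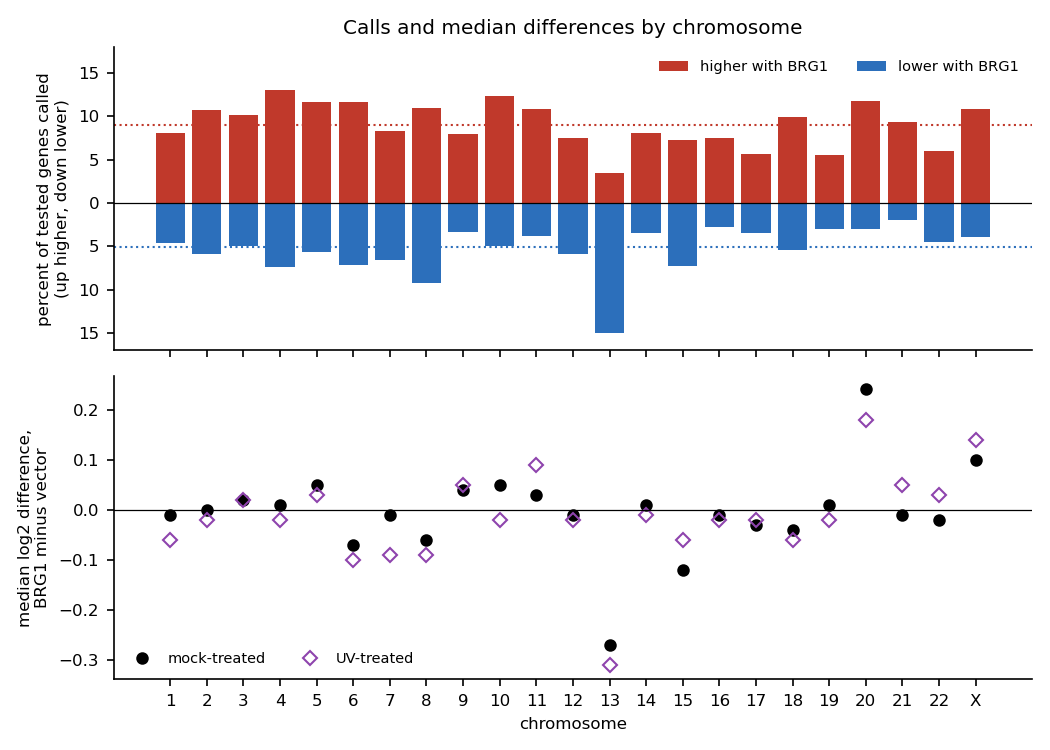
Top, percent of tested genes of each chromosome called higher (up) or lower (down) in BRG1-labelled mock-treated cells, with dotted lines at 9.05% and 5.09%. Bottom, median log2 difference per chromosome in mock-treated (filled) and UV-treated (open) cells, lowest on chromosome 13 and highest on chromosome 20 in both.

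Genes called in the same direction also lay side by side. There were 52 runs of at least 3 neighbouring tested genes with the same call, 34 higher and 18 lower. The longest had 7 lower genes on chromosome 12, TMTC3, KITLG, DUSP6, POC1B, ATP2B1, ATP2B1-AS1 and LUM, with log2 differences of -5.85 to -1.03. ATP2B1, a calcium pump at the end of that range, lost its call without vector-labelled array 1 or 2 or BRG1-labelled array 3 (-0.96, -0.99 and -0.79), and LUM, a matrix proteoglycan, without the arrays numbered 1 or 2 (-3.10 and -3.23). A run of 6 on chromosome 16 held the metallothioneins (2.36 to 4.26), and a run of 5 on chromosome 2 held ZC3H15, ITGAV, FAM171B, CALCRL and TFPI (-3.62 to -1.17). Runs of 4 held IFIT2, IFIT3, IFIT1 and IFIT5 on chromosome 10 (2.41 to 7.50), MMP10, MMP1, MMP3 and MMP12 on chromosome 11 (-6.49 to -1.72) and TES, CAV2, CAV1 and MET on chromosome 7 (1.16 to 10.45), where CAV2 lost its call without the arrays numbered 1 (3.77). Some runs are families of related genes and some join genes of unlike function, and how many runs chance would give was not tested.

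Promoter sequences from RefSeq (GRCh38.p14) were set beside the calls as a description. Windows ran from 250 bases before to 50 bases after the gene start and were found for 11118 tested genes. Genes with the largest differences had fewer CG pairs: the median was 25 over all tested genes, 20.5 over 174 genes higher by over 16-fold and 12.5 over 56 genes lower by over 16-fold. Windows with under 5 CG pairs made up 8.24%, 19% and 28.6%. Over all 992 higher and 536 lower genes with a window the medians were 23 and 26, near that of all genes, so the difference lay in the largest changes. These promoters were printed to show that range, and were chosen after the values of their genes were seen: CAV1 and IFIT1, higher from background, MT2A, higher and inducible by metals, and CCN2, RGCC and MMP10, lower. The 250 bases before the start are given 5′ to 3′ on the strand of the gene, and capitals mark any match to the motifs searched.
CAV1: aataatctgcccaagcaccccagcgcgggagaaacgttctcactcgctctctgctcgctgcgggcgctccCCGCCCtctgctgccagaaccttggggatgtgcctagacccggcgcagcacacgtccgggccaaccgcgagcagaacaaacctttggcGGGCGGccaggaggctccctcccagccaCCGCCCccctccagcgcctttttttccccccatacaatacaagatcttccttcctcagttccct
IFIT1: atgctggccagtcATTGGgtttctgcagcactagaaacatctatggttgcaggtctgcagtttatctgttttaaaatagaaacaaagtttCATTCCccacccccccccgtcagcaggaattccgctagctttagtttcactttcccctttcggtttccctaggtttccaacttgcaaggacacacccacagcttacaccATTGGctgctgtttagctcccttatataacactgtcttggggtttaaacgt
MT2A: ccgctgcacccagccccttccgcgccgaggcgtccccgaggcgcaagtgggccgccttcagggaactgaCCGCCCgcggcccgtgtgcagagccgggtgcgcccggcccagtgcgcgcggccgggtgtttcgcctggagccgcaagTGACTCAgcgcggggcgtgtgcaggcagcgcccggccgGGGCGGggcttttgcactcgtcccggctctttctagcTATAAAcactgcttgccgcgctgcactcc
CCN2: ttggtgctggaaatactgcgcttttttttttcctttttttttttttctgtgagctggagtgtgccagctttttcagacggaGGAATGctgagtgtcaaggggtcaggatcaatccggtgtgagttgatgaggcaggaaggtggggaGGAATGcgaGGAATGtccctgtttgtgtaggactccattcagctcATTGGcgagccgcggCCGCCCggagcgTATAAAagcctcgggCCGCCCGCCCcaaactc
RGCC: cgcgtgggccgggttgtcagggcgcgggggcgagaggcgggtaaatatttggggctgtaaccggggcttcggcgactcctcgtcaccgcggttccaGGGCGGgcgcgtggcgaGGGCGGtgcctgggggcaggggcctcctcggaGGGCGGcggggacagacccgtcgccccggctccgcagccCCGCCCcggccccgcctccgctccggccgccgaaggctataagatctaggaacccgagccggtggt
MMP10: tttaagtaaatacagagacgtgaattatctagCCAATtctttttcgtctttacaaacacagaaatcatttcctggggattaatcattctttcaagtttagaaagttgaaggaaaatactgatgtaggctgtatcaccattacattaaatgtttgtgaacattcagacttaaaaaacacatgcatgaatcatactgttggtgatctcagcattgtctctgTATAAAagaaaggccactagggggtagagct
These stretches lie at chr7:116524759-116525008 on the plus strand (CAV1), chr10:89392373-89392622 on the plus strand (IFIT1), chr16:56608334-56608583 on the plus strand (MT2A), chr6:131951373-131951622 on the minus strand (CCN2), chr13:41457300-41457549 on the plus strand (RGCC) and chr11:102780629-102780878 on the minus strand (MMP10). Over their 250 bases they hold 18, 4, 32, 13, 34 and 2 CG pairs, in the order printed, while the medians above are over windows of 300 bases. RGCC and MMP10, both lower, therefore stand at opposite ends of CG content.

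Each of 8 motifs was searched on both strands. The letters TGACTCA stood for the AP-1 site, and GGAATG was the TEAD motif through which YAP acts. The palindrome CACGTG was the E-box, and GGGCGG was the GC box bound by SP1. The core promoter was searched for TATAAA as the TATA box and for CCAAT as the CCAAT box. Cell cycle genes were the reason to search GCGCGAAA as the E2F site and TTTGAA as CHR, an element of mitotic genes. Among genes changed by over 16-fold, the AP-1 letters stood in 8.05% of the windows of higher and 12.5% of those of lower genes, against 3.15% over all tested genes and 4.92% of all 27305 promoters. The TATA letters stood in 11.5% and 19.6%, against 6.41% and 12%, and the CHR letters in 10.9% and 28.6%, against 10.1% and 15.4%. GC boxes went the other way, 59.2% and 42.9% against 67.2% and 44.6%. TEAD letters stood in 14.9% and 8.93%, against 11.3% and 14%, CCAAT in 31.6% and 33.9%, against 36.7% and 35.7%, the E-box in 6.32% and 3.57%, against 9.93% and 7.43%, and the E2F letters in 0.575% and 0, against 0.971% and 0.546%. The 56 lower genes are few, with 7 windows holding the AP-1 and 16 the CHR letters. Over all 992 higher and 536 lower genes the shares lay closer to those of all tested genes, 4.33% and 3.54% for AP-1, 8.57% and 7.65% for TATA, 66.5% and 68.3% for the GC box and 9.68% and 16% for CHR. In the printed stretches, CCN2 holds GGAATG at 3 places, a TATA box and GC boxes of which the last 2 overlap, MT2A holds TGACTCA and a TATA box, and MMP10 holds a TATA box with no GC box. A match is a run of letters, not evidence of a bound factor.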

How the data were processed

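Total RNA of 12 samples was hybridised to human U133 Plus 2.0 arrays. The authors deposited MAS signal intensities on a linear scale, scaled to a mean of 125 per array, with no detection calls used here. No source used here gives the MAS version. Log2 intensities of 32622 of 54613 probe sets (at or above the array median on at least 3 of 12 arrays, 62 controls left out) were fitted with limma 3.58.1 in R 4.3.3, with 4 group means over all 12 arrays, empirical Bayes moderation with a trend, and Benjamini-Hochberg adjustment over all tested probe sets. A call required an adjusted p under 0.05 and a fold over 2. A gene was represented by its brightest tested probe set with a single symbol. The depth of arrays is not counted, and the number of arrays limits precision. Named genes were bright, called genes whose signals did not overlap between the lines, with the largest changes overall and in each list. Other called members were added to lists where few passed. Genes the study followed and reference genes were named too. Signals did not overlap in 99.5% of all higher and 99% of all lower called genes. Members, lists and named genes were chosen with earlier results of these data known. The fit was tested on simulated data. Alternatives changed the normalization, filter, low signals, fold, test, arrays and gene summary. The result of 1 gene list is not reported here.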

Additional observations from a re-analysis of the deposited data

Results flagged for a closer look

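The difference between BRG1-labelled and vector-labelled cells itself differed between UV-treated and mock-treated arrays for 4 of the 270 named genes, by limma's interaction term adjusted over all tested probe sets. How many of all tested genes pass this test is not given here. Most named genes were chosen for large differences in mock-treated cells, which can by itself leave smaller differences after UV. The part of that choice was not tested. For JUN, an AP-1 subunit, the log2 difference was 4.08 in mock-treated and 1.56 in UV-treated cells, a change of -2.52 (adjusted p = 0.00199). For IER3, a stress-induced gene, it was 3.38 and 1.24, a change of -2.14 (adjusted p = 0.00413). For LIN28B, it was -2.01 and -3.75, a change of -1.74 (adjusted p = 0.0139). For SPRY2, it was -5.04 and -3.69, a change of 1.36 (adjusted p = 0.0213). The sign of the difference was the same under both treatments in all 4 genes.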

How the results depend on the processing

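No gene called in mock-treated cells was called in the opposite direction under any of the 26 alternatives, and 64% of calls were higher against 54% to 72.2% in the alternatives. The alternatives use the same arrays or some of them, so opposite calls were unlikely from the start. Counts are given as probe sets higher, probe sets lower, genes higher, genes lower and genes called alike in UV-treated cells (2509, 1403, 1252, 704 and 1517 as reported). With no fold threshold, probe sets lower were 3072 and the gene counts 1986, 1693 and 2956, with 54% of calls higher. At a fold over 4 the counts were 1357, 487, 635, 245 and 678, and with the methods' test after Benjamini-Hochberg 432, 192, 250, 105 and 147. A filter at the 75th percentile gave 1640 probe sets higher. Arrays 1 and 2 averaged, chosen after seeing the data, gave 1662 and 808 probe sets and 433 genes lower. Leaving out an experiment number gave 1485 to 2733, 724 to 1630, 823 to 1353, 397 to 798 and 981 to 1610, with the lowest counts without number 1 and the highest without number 3, and leaving out a single array gave 2060 to 2563, 1181 to 1490, 1088 to 1311, 617 to 776 and 1389 to 1526. The samples were treated as unpaired. Correlations of deviations between arrays of equal experiment number were 0.141, 0.0962 and 0.293, against -0.223 to 0.137 for unequal numbers. Whether equal numbers mark a pairing was not tested. With the replicate block the counts were 2785, 1584, 1358, 773 and 1631, and 1954 of 1956 calls were kept. Over the named genes, 6419 values kept their side of the threshold, 531 lost it and 10 gained it, counting each gene under each alternative. Of 252 called named genes, 64 kept the call under every alternative but the fold over 4. The methods' test after Benjamini-Hochberg kept 17.8% of the 1956 calls. The cause was not tested. Signals near background limit the size of the largest folds.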
